A study of Mus musculus with 6 samples.

Results

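In mouse bone marrow HSCs (haematopoietic stem cells), 355 regions of chromatin were called accessible in all 3 libraries from tunicamycin-treated mice and in none of the 3 from DMSO-treated mice, once every library was represented by the same number of peaks. They were chosen by these calls. From each of 6 ranked peak lists the 28501 peaks of highest −log10 q were kept on autosomes 1 to 19 and the sex chromosomes, 28501 being the length of the shortest list. Kept peaks that overlapped by at least 1 bp were merged into 44958 regions, and a region counted as tunicamycin-only if it held a kept peak of all 3 tunicamycin lists and of no DMSO list. The 355 regions were 0.790% of all merged regions, and the mirror rule gave 118 DMSO-only regions, 0.262%. Because the calls of these libraries chose the regions, the counts, ranks and enrichments describe the choice and carry no test. Presence in 3 libraries against absence from 3 could not give a two-sided exact p below 0.10 for any region.

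The mice were wild-type C57BL/6J animals injected intraperitoneally with tunicamycin at 2 mg per kg (3 libraries) or with DMSO, the solvent (3 libraries). The cells were sorted as CD48-CD150+LSK, a phenotype in which cells lack lineage markers and CD48 and carry Sca-1, c-Kit and CD150, and about 5000 went into each ATAC-seq library. The labels give neither the age of the mice nor the time between injection and sorting, and do not state whether each library came from its own animal. A region open in more cells and a region more open in each cell cannot be told apart in such bulk libraries.

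Tunicamycin blocks the first step of N-linked glycosylation, so that glycoproteins misfold in the endoplasmic reticulum (ER). The unfolded protein response that follows has the sensors IRE1, PERK and ATF6, whose transcription factors XBP1s, ATF4 and cleaved ATF6 raise the output of chaperones, ER-associated degradation, amino acid transport and, under lasting stress, cell death genes. ATAC-seq marks DNA that a transposase can reach, mainly promoters and distal regulatory elements, and distal elements as a class are more specific to a cell type or state than promoters.

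At 8 of the 355 regions the sequence of a promoter could be read directly from RefSeq's promoter table, in which 17461 of 21883 protein-coding genes had a window used here, so 8 is not a full count of promoters among the regions. In this table, built on GRCm38.p6 (the same assembly as mm10), a tunicamycin-only region covered at least 200 of the 250 bases before a start site for Gzmb, Zap70, Nlrp3, Arhgap20, Ttc33, Cfap77, Ankrd60 and LOC115486439. The first 4 are shown because they include 3 immune effector or signalling genes and the widest of all 355 regions. Gzmb encodes granzyme B, the cytotoxic granule protease, on chr14:56262335-56262584 (minus strand). Zap70 encodes the kinase downstream of the T cell receptor, on chr1:36761548-36761797 (plus strand). Nlrp3 encodes the inflammasome sensor, on chr11:59542436-59542685 (plus strand). Arhgap20 encodes a GTPase-activating protein, on chr9:51765101-51765350 (plus strand). Each sequence reads 5′ to 3′ on the strand of its gene and ends at the base before the start site, and capitals mark a match to a motif searched on both strands.
Gzmb: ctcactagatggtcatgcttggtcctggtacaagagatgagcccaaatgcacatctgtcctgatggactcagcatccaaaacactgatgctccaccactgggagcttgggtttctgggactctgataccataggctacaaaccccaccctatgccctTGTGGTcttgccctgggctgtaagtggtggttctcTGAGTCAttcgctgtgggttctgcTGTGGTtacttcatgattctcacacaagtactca
Zap70: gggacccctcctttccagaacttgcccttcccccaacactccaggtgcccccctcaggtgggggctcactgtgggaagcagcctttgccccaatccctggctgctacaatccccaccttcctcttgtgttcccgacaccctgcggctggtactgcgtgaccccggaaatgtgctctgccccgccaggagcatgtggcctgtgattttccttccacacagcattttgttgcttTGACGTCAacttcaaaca
Nlrp3: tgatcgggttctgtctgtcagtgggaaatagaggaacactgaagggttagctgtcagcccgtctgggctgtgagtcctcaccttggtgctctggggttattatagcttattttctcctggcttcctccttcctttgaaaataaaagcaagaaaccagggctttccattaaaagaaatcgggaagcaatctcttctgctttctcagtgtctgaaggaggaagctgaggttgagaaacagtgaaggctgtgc
Arhgap20: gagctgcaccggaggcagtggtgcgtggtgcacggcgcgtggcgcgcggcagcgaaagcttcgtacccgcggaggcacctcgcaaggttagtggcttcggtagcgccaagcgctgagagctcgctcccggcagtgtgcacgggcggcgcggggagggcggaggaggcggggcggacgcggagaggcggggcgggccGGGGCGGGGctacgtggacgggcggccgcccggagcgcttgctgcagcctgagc

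In the Gzmb sequence the capitals are 1 AP-1 match (TGANTCA) and 2 RUNX matches (TGTGGT), in Zap70 a cyclic AMP response element (CRE, TGACGTCA), and in Arhgap20 a KLF/SP match (GGGGCGGGG). Nlrp3 held no match. AP-1 matches occurred in 2 of the 8 windows (Gzmb and LOC115486439), beside 6.14% of all 21229 promoter windows of this length and 3.16% of the 8029 covered by regions kept in all 6 lists. RUNX matches occurred in the same 2 windows, beside 12.4% of all windows. CRE matches were in 1 of 8 beside 1.93% of all, and KLF/SP matches in 1 of 8 beside 13.9% of all. A match is a run of letters in a window and shows no binding.

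No window of the 8 held a match to the other motifs searched, which says only that these letters are not in these windows. They were ATF4/CHOP (TGATGNAA, 3.18% of all windows), the UPR element (TGACGTGG, 0.594%), the ER stress response element ERSE (0.132%), the site of GATA factors (AGATAA, 8.81%), PU.1 (GAGGAAGT, 2.23%), ETS (CCGGAAGT, 3.79%), CEBP (TTGCNNAA, 9.1%), the E-box (CACGTG, 6.63%) and IRF (2.95%). The UPR element and the CRE share their first 6 letters. The 8 windows ranged from 0 CpG dinucleotides (LOC115486439) to 37 (Arhgap20), with a median of 8. The median was 18 in windows covered by regions kept in all 6 lists and 10 in all windows. The 8 promoters were thus a mixture of CpG-poor and CpG-rich sequence, with 1 CpG in Gzmb, 3 in Nlrp3 and 6 in Zap70.

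The Gzmb promoter region ranked 24813, 16081 and 8238 in the lists of tunicamycin replicates 1, 2 and 3, where rank 1 is the peak with the highest −log10 q. It ranked 31411 in DMSO replicate 1 and had no peak in DMSO replicates 2 and 3. Tunicamycin replicate 3 gave the highest rank of any of the 355 regions in that library, and the DMSO replicate 1 peak lay below the limit of 28501. The Zap70 region ranked 27806, 23871 and 22811 in the tunicamycin lists and 30297 in DMSO replicate 2, with no peak in DMSO replicates 1 and 3. The Nlrp3 region ranked 26113, 21763 and 25308 in the tunicamycin lists, 36824 in DMSO replicate 1 and 30720 in DMSO replicate 2. The Arhgap20 region, 1191 bp wide, ranked 16173, 19910 and 26960 in the tunicamycin lists and 31226 in DMSO replicate 1. In all of these the DMSO lists either had no peak or had one past the limit, as the rule requires.

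The lists varied more in length and in −log10 q at the limit among DMSO libraries than among tunicamycin libraries. This bears on every count here. The tunicamycin lists held 44952, 56865 and 47789 peaks and the DMSO lists 62478, 38217 and 28501. Read depth is unknown from peak lists. The −log10 q at the limit was 7.68, 10.0 and 8.77 in the tunicamycin lists and 13.4, 5.72 and 1.30 in the DMSO lists. A peak of the same significance could therefore be kept in one list and dropped in another, most of all against DMSO replicate 1, whose limit was the strictest. DMSO replicate 3 kept its whole list, so no peak past the limit could be found in it. Leaving out 1 library loosens the rule, and it then gave 847, 699 and 693 regions without tunicamycin replicates 1, 2 and 3 and 881, 643 and 579 without DMSO replicates 1, 2 and 3.

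The HSC label was compared with 10 marker genes. A kept peak lay within 1 kb of or inside 8, 6 and 7 of them in the tunicamycin lists and 7 of them in each DMSO list. Kit, Hlf, Mecom, Meis1 and Gata2 had a region kept in all 6 lists, and Ly6a, Slamf1, Procr and Fgd5 were among those that did not. Of the 6 neutrophil and monocyte markers, 1 in each tunicamycin list and 2, 1 and 1 in the DMSO lists had a kept peak, and Elane, Mpo, Ly6g, S100a8 and S100a9 lacked a region shared by all 6. Of 6 lymphoid markers the numbers were 1, 4 and 4 in the tunicamycin lists and 1, 3 and 3 in the DMSO lists. Of 5 erythroid markers they were 4, 2 and 3 in the tunicamycin lists and 3, 2 and 3 in the DMSO lists, and 3 of 4 megakaryocyte markers had a kept peak in every list. Of 3 macrophage markers they were 1, 2 and 1 in the tunicamycin lists and 2, 1 and 1 in the DMSO lists. Of 5 stroma and endothelium markers they were 3 in each tunicamycin list and 3, 3 and 2 in the DMSO lists.

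Most of the 355 regions had a peak of lower rank in the full DMSO lists. Such a peak is called weaker here by its rank in its own list alone, whatever its −log10 q or fold enrichment. The full DMSO lists held a peak past the limit at 331 of them, 93.2% (exact binomial 95% interval 90.1 to 95.6, covering counting error only). DMSO replicate 1 held one at 323 regions (91.0%) and DMSO replicate 2 at 138 (38.9%). At 130 regions both did, at 193 DMSO replicate 1 did without replicate 2, and at 8 replicate 2 did without replicate 1. The remaining 24 regions, 6.76% (4.38 to 9.89), had no peak in any deposited DMSO list. Without DMSO replicate 1 in the rule, 44.5% of the 881 regions had a weaker peak in another DMSO list. The absence of a call is not evidence of closed chromatin.

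**Figure D1:**
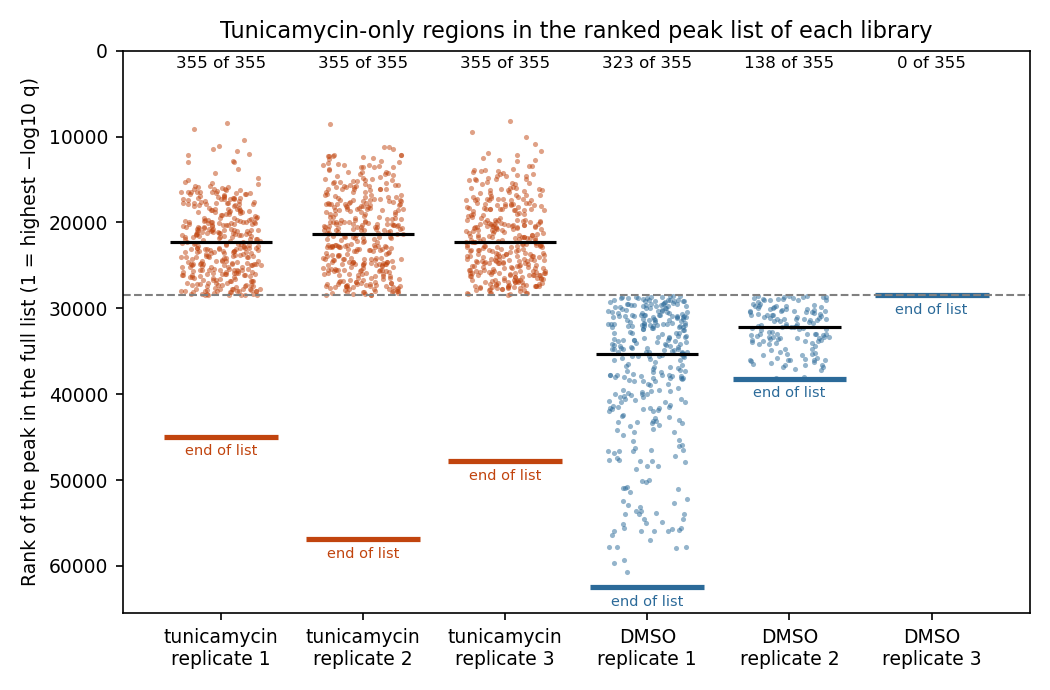
Rank of the peak at each of the 355 tunicamycin-only regions in the full list of each library (vertical axis, rank 1 at the top; points are regions, black bars medians, coloured bars the end of each list, dashed line the limit of 28501). All points of the 3 tunicamycin libraries lie above the limit by the rule, most of them in the lower part of the kept range, and 323 points of DMSO replicate 1 and 138 of DMSO replicate 2 lie below it.

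The regions sat low among the kept peaks. Their ranks in tunicamycin replicate 1 ran from 8464 to 28498 with a median of 22299, in replicate 2 from 8518 to 28482 with a median of 21318, and in replicate 3 from 8238 to 28485 with a median of 22235. The weaker DMSO peaks ranked from 28581 to 60678 in replicate 1, with a median of 35281, and from 28528 to 38144 in replicate 2, with a median of 32124. The best rank of any of the 355 in any library was thus 8238, and 24 had all 3 tunicamycin ranks at 20000 or better. In DMSO replicate 1, 263 of the 323 weaker peaks (81.4%) were in the better-ranked 50% of the peaks left out, and in DMSO replicate 2, 90 of 138 (65.2%).

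The fold enrichments, which are the authors' own value for each peak, described the same weak to middling peaks. Their medians at the 355 regions were 5.80, 6.61 and 6.15 in tunicamycin replicates 1, 2 and 3. At the weaker peaks they were 5.60 in DMSO replicate 1 and 4.12 in DMSO replicate 2. The median −log10 q was 10.5, 14.2 and 11.8 at the 355 regions in tunicamycin replicates 1, 2 and 3. At the weaker peaks it was 10.1 in DMSO replicate 1 and 4.57 in DMSO replicate 2. A weaker peak of DMSO replicate 1 was thus not always less significant or less enriched than the tunicamycin peaks. Each value belongs to its own list and shows no change between lists. As a share of the full list, the median position was 49.6%, 37.5% and 46.5% from the top in the tunicamycin lists, 56.5% in DMSO replicate 1 and 84.1% in DMSO replicate 2. At 115 of 323 regions (35.6%) the DMSO replicate 1 peak stood at a better share of its list than the weakest of the 3 tunicamycin peaks, and at 208 at a worse one. In DMSO replicate 2 all 138 stood at a worse one.

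Many regions were near the limit on one side or the other. At 67 the weakest tunicamycin peak lay within 1000 ranks above the limit, at 45 a DMSO peak lay within 1000 ranks below it, and at 103 at least one of these held. Just inside stood a region 40.6 kb from Bcl2l11, the gene of the pro-apoptotic protein BIM, with rank 28482 in tunicamycin replicate 2, one inside Zfp800 with rank 28485 in replicate 3, and one inside Plcg2, a phospholipase of immune receptor signalling, with rank 28498 in replicate 1. Seen from the DMSO side, those nearest to the limit included regions 27.2 kb from Spin1 (rank 28528 in DMSO replicate 2) and 0.889 kb from Serpinb1b (28581 in DMSO replicate 1). Just outside, left out by a kept DMSO peak, stood regions near Itgam (28485 in DMSO replicate 2), near Septin3 (28472 in DMSO replicate 1) and inside Srebf2 (28459 in DMSO replicate 1). In all, 1034 regions had a kept peak in all 3 tunicamycin lists and in exactly 1 DMSO list, 521 of them in DMSO replicate 1, 289 in replicate 2 and 224 in replicate 3.

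The 24 regions with no peak in any deposited DMSO list were free of the limit on the DMSO side only. On the tunicamycin side some stood close to it, and none of the 24 was separated with lists of 20000 peaks. The best ranked was 119 kb from Acvr2a, the gene of an activin type II receptor, at chr2:48694425-48694929, with ranks of 19983, 20633 and 12174 in the tunicamycin lists. A region 12.5 kb from Arap2, which encodes a GTPase-activating protein for Arf6, ranked 20028, 12203 and 22714. Both regions were called in every tunicamycin library and had no peak in any deposited DMSO list. Those lists stop at a q-value of about 0.05, so weaker signal cannot be seen.

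Regions near cytokine receptor genes stood lower in that order, after the region inside Opalin described below. A region 102 kb from Prlr, the prolactin receptor gene, at chr15:10074984-10075675, ranked 23232, 12958 and 16166 in the tunicamycin lists. A region 10.4 kb from Lifr, which encodes the receptor for leukaemia inhibitory factor, at chr15:7079850-7080207, ranked 15907, 21214 and 23240. The authors' fold enrichment at the Lifr region was 7.21, 7.07 and 6.39 in the tunicamycin lists. Both regions lay on chromosome 15 and outside the gene body, and neither had a peak in the DMSO lists.

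Other regions among the 10 best ranked of the 24 were inside Opalin, a gene known from myelin (ranks 23081, 13303 and 14407), inside Rad52, a homologous recombination gene (16472, 8518 and 23578), inside Ndst1, a heparan sulfate enzyme gene (24126, 23825 and 15976), 391 kb from Zfp462, a zinc finger gene (17672, 24319 and 17359), and inside Ppp1r21, which encodes an endosomal protein (16081, 22789 and 24659). The Rad52 region had the best rank of all 355 in tunicamycin replicate 2. Below them stood regions near Slc7a5 and inside Ep400, described with their gene groups, and others near or inside Cacna1d, Klhdc10, Nbea, Hps4, Inka2, Klk1b21, Ddn, Tsc22d1, Ttc32, Ap1m1, Jakmip1 and Sdk2. Of the 24, 11 lay inside a gene, 3 within 1 kb of a gene end and 4 more than 100 kb from any gene.

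Ranked by the weakest of the 3 tunicamycin peaks, the strongest of the 355 regions was inside Slc9a9, which encodes an endosomal sodium and proton exchanger, at chr9:95042406-95042824. Its ranks were 12151, 12391 and 14150 in the tunicamycin lists and 33951 in DMSO replicate 1, with no peak in DMSO replicates 2 and 3. The second was inside Mad1l1, a spindle checkpoint gene, at chr5:140282407-140283287, with ranks of 16874, 15169 and 12821 in the tunicamycin lists, 45430 in DMSO replicate 1 and 37099 in DMSO replicate 2. The third was inside Clec2m, a C-type lectin family gene, with ranks of 16670, 17217 and 15492 in the tunicamycin lists, 39626 in DMSO replicate 1 and 28687 in DMSO replicate 2. All of the 10 best ranked had a weaker peak in DMSO replicate 1, so the strongest regions and the regions without a DMSO peak were separate sets.

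The other 7 of the 10 best ranked lay 290 kb from Mmadhc, a cobalamin metabolism gene, inside Pde7b, a cyclic AMP phosphodiesterase gene, inside Dapp1, which encodes a B cell signalling adaptor, 33.4 kb from Gm2808, inside Nos1, the neuronal nitric oxide synthase gene, inside Ppm1l, a protein phosphatase gene, and 2.78 kb from Tia1, which encodes a stress granule RNA-binding protein. The Mmadhc region had the best rank of all 355 in tunicamycin replicate 1, 8464, with 11255 and 17292 in replicates 2 and 3 and 38915 in DMSO replicate 1. Their tunicamycin ranks ran from 8464 to 18213 and their DMSO replicate 1 ranks from 28754 to 44078. Only the regions at Dapp1 (31219) and Gm2808 (28980) of these 7 also had a peak in DMSO replicate 2.

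The 355 regions were mostly away from gene ends. By the RefSeq gene table, 204 lay inside a protein-coding gene, 57.5% (52.1 to 62.7), where exons and introns were not distinguished. That share was 69.5% (60.3 to 77.6) of DMSO-only regions, 59.1% (57.4 to 60.8) of the 3147 other regions kept in exactly 3 lists, 75.9% of the 17039 kept in all 6 and 63.6% of all merged regions. Within 1 kb of either end of a gene lay 36 of the 355, 10.1% (7.20 to 13.8). That share was 19.5% (12.8 to 27.8) of DMSO-only regions, 14.9% (13.7 to 16.2) of other regions in exactly 3 lists, 48.7% of those in all 6 and 26.6% of all merged regions. The interval for tunicamycin-only regions lay below that for regions in all 6 lists (47.9 to 49.4) and met that for other regions in 3 lists at its edge. Regions are not replicates, so no test of these shares was made.

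**Figure D2:**
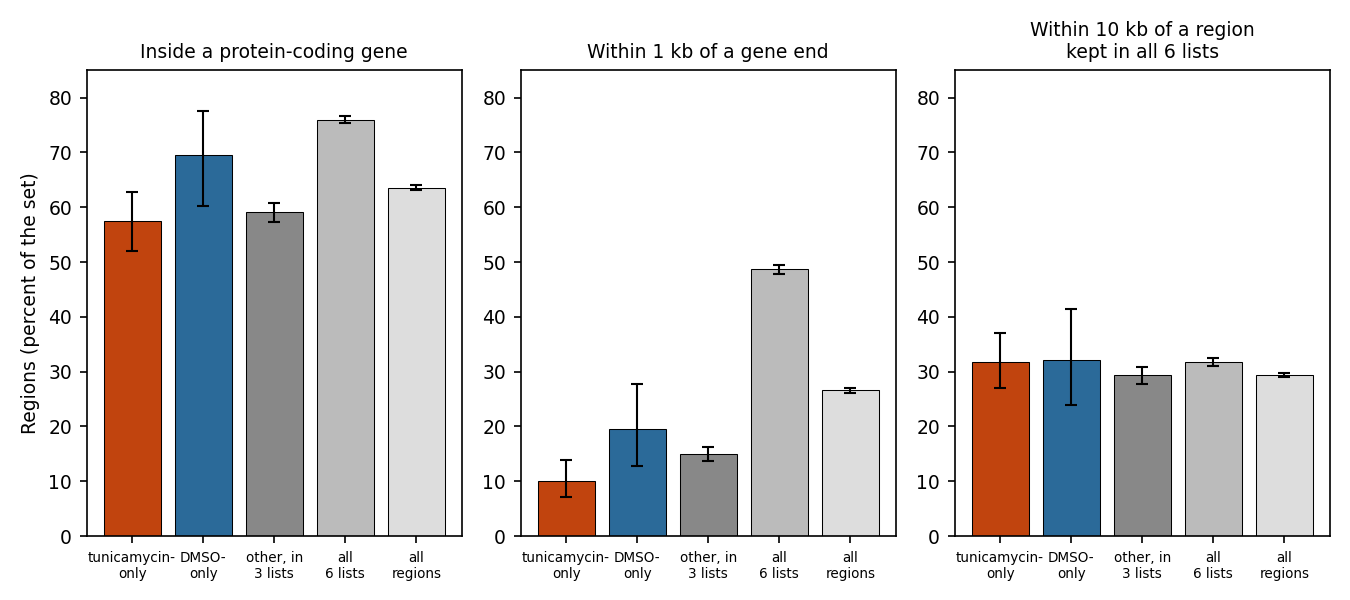
Share of regions (vertical axis, percent of each set) inside a protein-coding gene, within 1 kb of a gene end and within 10 kb of another region kept in all 6 lists, for tunicamycin-only, DMSO-only, other regions kept in exactly 3 lists, regions kept in all 6 and all merged regions. Bars are shares and whiskers exact binomial 95% intervals. The near-end share of tunicamycin-only regions, 10.1%, is below the 48.7% of regions in all 6 lists, and the shares within 10 kb of a region in all 6 lists lie between 29.3% and 32.2%.

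The median distance to the nearest gene end was 16.8 kb for the 355 regions, 9.94 kb for DMSO-only regions, 13.1 kb for other regions in exactly 3 lists, 1.27 kb for those in all 6 and 9.45 kb over all merged regions. Another 127 of the 355 (35.8%) lay outside genes but within 100 kb, and 24 (6.76%) lay farther than 100 kb from any gene. Regions kept in all 6 lists stood within 10 kb of 113 of the 355 (31.8%), beside 29.4% over all merged regions. The gene nearest to a tunicamycin-only region carried a region kept in all 6 lists, inside it or within 1 kb, in 235 of 331 cases, 71.0% (65.8 to 75.8). That share was 66.7% (64.9 to 68.4) for other regions in exactly 3 lists, and 77.1% over all merged regions, which include those kept in all 6 lists. Most of the nearest genes thus had accessible chromatin in every library apart from the tunicamycin-only region.

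The 355 regions had a median width of 457 bp, beside 486 bp for DMSO-only regions, 450 bp for other regions in exactly 3 lists and 813 bp for those in all 6. They were spread over all 19 autosomes. The share of merged regions that was tunicamycin-only ran from 0.377% on chromosome 10 (9 regions) to 1.32% on chromosome 12 (24 regions), and chromosome 2 held the most, 35. None of the 765 merged regions on chromosome X or of the 22 on chromosome Y was tunicamycin-only. Other regions in exactly 3 lists were on X in 1.40% of cases.

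The 331 regions within 100 kb of a gene were nearest to 320 genes, 2.17% of the 14775 genes nearest to any merged region. Of 657 genes in 26 lists of pathways and cell types, 602 were nearest to a merged region and 30 of these (4.98%) to a tunicamycin-only one. Counted by region, 32 of 2430 regions next to list genes (1.32%) were tunicamycin-only, beside 299 of 39997 next to other genes (0.748%). For DMSO-only regions the shares were 0.206% next to list genes and 0.268% next to other genes. The lists had been written with genes from earlier results of these data in view, among them Slc7a5, Lifr and Ep400, so these shares support nothing. Of the 26 lists, 19 held 1 to 3 of the regions and 7 held none.

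Stress-response genes accounted for a handful of the nearest genes. Of 39 ER stress response genes nearest to any merged region, 2 were nearest to a tunicamycin-only one. Of the 89 regions next to these genes 2.25% were tunicamycin-only, beside 0.790% of all merged regions. That share was 1.82% (1 of 55 regions) next to the housekeeping genes used as a control list. A region 9.03 kb from Herpud1, which encodes an ER membrane protein of ER-associated degradation, at chr8:94377024-94377399, ranked 23837, 16699 and 21239 in the tunicamycin lists, 34384 in DMSO replicate 1 and 30414 in DMSO replicate 2. A region 10.5 kb from Creld2, which encodes an ER-resident protein, at chr15:88837141-88837955, ranked 15916, 22811 and 26688 in the tunicamycin lists, 37795 in DMSO replicate 1 and 33822 in DMSO replicate 2. Both lay outside the gene, and both had weaker peaks in the same pair of DMSO lists.

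Of 26 integrated stress response genes, Slc7a5 alone was nearest to a tunicamycin-only region, which was 1 of 83 regions next to these genes (1.20%). The same list had 1 DMSO-only region, nearest to Vldlr. Counts this small are given as a description. Slc7a5 encodes LAT1, a transporter of large neutral amino acids. The Slc7a5 region lay 3.73 kb outside the gene at chr8:121911413-121911755 and ranked 17315, 24877 and 20950 in the tunicamycin lists. The authors' fold enrichment there was 4.49, 4.11 and 4.25 in the tunicamycin lists, and no DMSO list had a peak. The list of N-linked glycosylation genes, 26 of them nearest to a merged region, held none, and neither did the 4 genes of the EMP and PMP22 family of small membrane proteins.

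Other stress and metabolism lists held 1 or 2 genes each. The tunicamycin-only share was 1.25% of 80 regions next to oxidative stress genes and 1.43% of 70 next to autophagy and lysosome genes. It was 0.901% of 111 regions for the mTORC1 list and 1.9% of 105 for sphingolipid metabolism. For mitochondria and glycolysis it was 2.13% of 94 regions, beside 0.790% of all merged regions and 1.82% for housekeeping genes. A region at one end of Gclc, which encodes the catalytic subunit of the enzyme that begins glutathione synthesis, ranked 17313, 25981 and 20416 in the tunicamycin lists and 37787 in DMSO replicate 1. A region inside Atg14, an autophagy initiation gene, ranked 27975, 28013 and 28268 in the tunicamycin lists, all close to the limit, and 36668 in DMSO replicate 1. A region 0.250 kb from Akt1, the kinase gene of growth factor signalling, ranked 16516, 25526 and 26654 in the tunicamycin lists, 28649 in DMSO replicate 1 and 28847 in DMSO replicate 2. The Akt1 region was thus close to the limit in both of the DMSO lists that could hold a weaker peak. Sgms1, which encodes a Golgi sphingomyelin synthase, had a pair of regions, one inside it and one 16.9 kb away, with tunicamycin ranks of 18928 to 25202 and DMSO replicate 1 ranks of 38167 and 49973. Among mitochondrial and glycolysis genes, a region inside Ppargc1a (PGC-1 alpha, a coactivator of mitochondrial genes) ranked 24981, 12183 and 12712 in the tunicamycin lists, and one 0.117 kb from Egln1, an oxygen-sensing prolyl hydroxylase gene, ranked 25583, 21318 and 25039. Both had weaker peaks in DMSO replicates 1 and 2.

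Among 37 HSC identity genes nearest to any merged region, 3 were nearest to a tunicamycin-only one, beside 2.17% of all such genes. Of the 222 regions next to these genes 1.35% were tunicamycin-only, beside 0.790% of all merged regions. A region inside Fgd5, a gene used to mark HSCs, ranked 25491, 24219 and 14548 in the tunicamycin lists and 31880 in DMSO replicate 1. A region inside Zfp521, a zinc finger factor gene of early progenitors, ranked 27953, 27370 and 23924 in the tunicamycin lists, 44347 in DMSO replicate 1 and 33752 in DMSO replicate 2. Both were therefore low-ranked in most libraries, and each had a weaker DMSO peak.

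Receptor and signalling genes followed. A region inside Jak1, the cytokine receptor kinase gene, ranked 20901, 21757 and 23184 in the tunicamycin lists and 30503 in DMSO replicate 1. With Lifr, Jak1 made 2 of 29 cytokine and JAK-STAT genes, the Prlr region lying past the 100 kb allowed for the count. Of the 125 regions next to these genes 1.6% were tunicamycin-only, beside 0.790% of all merged regions. In the TGF-beta, activin and BMP list, 2 of 29 genes were Acvrl1 (ALK1, an endothelial type I receptor; 9.43 kb away) and Smad4 (the shared transducer; inside). The Acvr2a region lay past the 100 kb allowed for the count. Of the 149 regions next to genes of this list 1.34% were tunicamycin-only. The Acvrl1 region ranked 25567, 26461 and 17999 in the tunicamycin lists and 29383 in DMSO replicate 1, and the Smad4 region 17678, 24564 and 23941 in the tunicamycin lists, 30997 in DMSO replicate 1 and 31909 in DMSO replicate 2. Both regions thus had a peak of lower rank in DMSO replicate 1.

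The adhesion list had a region 34.6 kb from Cd9, a tetraspanin gene (ranks 11462, 20799 and 24669 in the tunicamycin lists and 42630 in DMSO replicate 1), and one inside Itga6, a laminin receptor subunit gene (23965, 27391 and 27331 in the tunicamycin lists, 30862 in DMSO replicate 1 and 37997 in DMSO replicate 2). A region inside Nfkbiz, which encodes a nuclear I-kappa-B protein, ranked 22299, 26175 and 21739 in the tunicamycin lists and 39917 in DMSO replicate 1. The tunicamycin-only share was 1.55% of 129 regions next to adhesion genes and 1.05% of 95 next to NF-kB and inflammation genes. Over all merged regions it was 0.790%. No tunicamycin-only region was nearest to a gene of the AP-1 and immediate early list or of the interferon list.

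Cell cycle and cell death genes gave 3 regions, with the Cdkn1a region counted in both lists. The tunicamycin-only share was 1.69% of 118 regions next to cell cycle genes and 1.85% of 108 next to apoptosis and p53 target genes. For chromatin regulators it was 1.49% of 134 regions, beside 0.790% of all merged regions. A region 3.72 kb from Aurkb, a mitotic kinase gene, ranked 18345, 25631 and 26984 in the tunicamycin lists and 47807 in DMSO replicate 1. A region 11.7 kb from Cdkn1a, which encodes the cell cycle inhibitor p21, ranked 19057, 22816 and 26671 in the tunicamycin lists and 30144 in DMSO replicate 1. The region near Bcl2l11 ranked 13012, 28482 and 20426 in the tunicamycin lists and 39922 in DMSO replicate 1, so its place in the set rested on a peak at the limit in replicate 2. Among chromatin regulators, a region inside Ep400, the ATPase gene of a chromatin remodelling complex, at chr5:110703860-110704585, ranked 24994, 26681 and 25509 in the tunicamycin lists and had no DMSO peak. A region inside Tet3, a 5-methylcytosine oxidase gene, ranked 27727, 20844 and 16868 in the tunicamycin lists, 47452 in DMSO replicate 1 and 30424 in DMSO replicate 2. Of the housekeeping genes, which served as a control list, Ywhaz had a region 64.0 kb away, 1 gene of 20. It was 1 of 55 regions next to these genes (1.82%), beside 2.25% for the ER stress response list and 1.2% for the integrated stress response list.

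**Figure D3:**
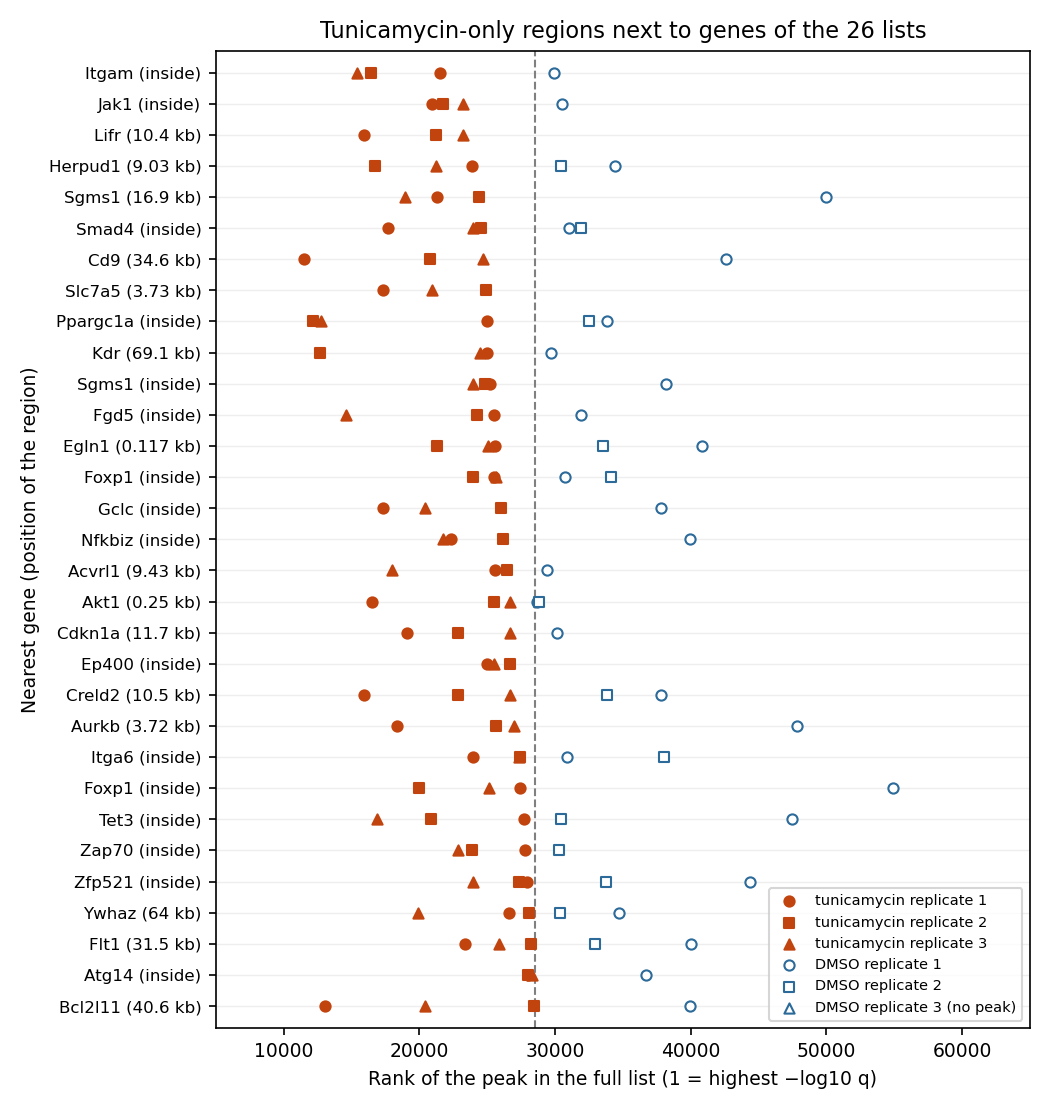
Rank of each peak in the full lists (horizontal axis) at 31 of the 32 tunicamycin-only regions nearest to a gene of the 26 lists, 1 row per region with its nearest gene and position. Filled symbols are tunicamycin libraries, open symbols DMSO libraries and the dashed line the limit of 28501 peaks. The filled symbols lie left of the line by the rule, and the rows of Lifr, Slc7a5 and Ep400 have no open symbol.

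Markers of other cell types also appeared among the nearest genes. Itgam, which encodes CD11b of myeloid cells, held a region with ranks of 21510, 16450 and 15418 in the tunicamycin lists and 29903 in DMSO replicate 1, and was the only one of 17 neutrophil and monocyte genes. In the lymphoid list, 2 of 25 genes were Zap70 and Foxp1, a forkhead factor gene of B and T cell development, which held 2 regions. In the stroma and endothelium list, 2 of 19 genes were Flt1 and Kdr, which encode receptors for vascular endothelial growth factor, at 31.5 kb and 69.1 kb. The macrophage, erythroid and megakaryocyte lists held none. Of the regions next to neutrophil and monocyte genes 1.59% were tunicamycin-only, beside 0.790% of all merged regions. That share was 2.19% for the lymphoid list and 2.82% for the stroma and endothelium list.

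A list of 28 T and NK cell genes was added after the Gzmb region had been seen, and supports nothing. Of its 24 genes nearest to any merged region, 4 were nearest to a tunicamycin-only one, namely Gzmb, Zap70, Cd247 and Klre1. Of the 85 regions next to these 24 genes 4.71% were tunicamycin-only, beside 0.790% of all merged regions. Cd247 encodes the zeta chain of the T cell receptor complex, and a region inside it ranked 17911, 19524 and 23226 in the tunicamycin lists, 32098 in DMSO replicate 1 and 35329 in DMSO replicate 2. Klre1 encodes an NK cell lectin-like receptor, and a region inside it ranked 27081, 14311 and 26329 in the tunicamycin lists and 52858 in DMSO replicate 1. Kept peaks lay at 16, 17 and 16 of the 28 genes in the tunicamycin lists and at 14, 15 and 15 in the DMSO lists. In the full lists the numbers were 20, 22 and 23 for tunicamycin and 23, 19 and 15 for DMSO. A region shared by all 6 lists lay at 9 of the 28 genes, and Cd3e, Cd3g, Lck, Cd4 and Cd8a were among those without one. The part of T or NK cells in these regions was not tested.

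At 10 genes 2 or more tunicamycin-only regions shared a nearest gene, 21 regions in all. Tspan13, a tetraspanin gene on chromosome 12, was nearest to 3 regions, all inside it. They lay at chr12:36019515-36019987, chr12:36029313-36029648 and chr12:36039479-36039998. The first ranked 16097, 23065 and 26950 in the tunicamycin lists, 40775 in DMSO replicate 1 and 33611 in DMSO replicate 2. The second ranked 21989, 12140 and 16852 in the tunicamycin lists and 31106 in DMSO replicate 2. The third ranked 13758, 19000 and 20922 in the tunicamycin lists, 40857 in DMSO replicate 1 and 31823 in DMSO replicate 2. All 3 therefore had a lower-ranked peak in a full DMSO list rather than being missing from every one.

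The other 9 genes had 2 regions each. They were Ap1m1 (a clathrin adaptor subunit), Arhgap10 (a GTPase-activating protein), Bhlhe41 (a transcriptional repressor), Cacna1d (a calcium channel subunit), Fars2 (a mitochondrial tRNA synthetase), Foxp1, Sgms1, Sipa1l2 and Uvrag (an autophagy and endosome regulator). The pair at Bhlhe41 lay 10.8 and 12.1 kb from the gene and the pair at Ap1m1 15.1 and 16.4 kb away, so these stood close together. At Ap1m1 and at Cacna1d, 1 region of each pair had no DMSO peak.

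Within 1 kb of a gene end, the 15 best ranked regions were next to Ppp1r14a, Zfyve9, Ftdc1, Nptn, Padi4, Cul9, Rbm38, Il17ra, LOC115486439, B3gnt3, Gzmb, Slc44a1, Vcl, Egln1 and Inka2. The first, 0.968 kb from Ppp1r14a, which encodes a phosphatase inhibitor, ranked 18478, 18772 and 17759 in the tunicamycin lists, 50254 in DMSO replicate 1 and 30565 in DMSO replicate 2. Regions that reached an end of the gene itself included those at Cul9, a cullin gene (16482, 14139 and 22270 in the tunicamycin lists), Rbm38, an RNA-binding protein gene (16474, 22843 and 14794), and Il17ra, the interleukin 17 receptor gene (19738, 23212 and 18070). All of these had weaker peaks in DMSO replicate 1, at rank 38488 for Cul9, 30981 for Rbm38 and 35722 for Il17ra. Inka2, 0.999 kb away, was the only one of the 15 with no DMSO peak.

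How the lists were cut decided which regions were separated. Of the 355, 24 were still separated when lists were limited to 20000 peaks and another 24, those with no DMSO peak, in the full lists. The first 24 were those with all 3 tunicamycin ranks at 20000 or better. Both outcomes thus follow from the ranks and calls already described, and no region was in both sets. Under a q-value of at most 1e-05, 44 were still separated, and with peaks ranked by fold enrichment 156. A change of peak outline mattered less, since 353 were separated with summit windows reaching 250 bp either way and 298 when a library's peaks had to cover 50% of a region. Over these 6 alternatives no region was separated in all, 16 in 5, 28 in 4, 119 in 3, 158 in 2 and 34 in 1. All 16 were among the 24 without a DMSO peak, with the regions near or inside Acvr2a, Arap2, Lifr, Rad52, Ppp1r21, Cacna1d, Inka2 and Ep400 among them, and none was separated with lists of 20000 peaks. In the full lists and at a q-value of at most 1e-05, separation of these 24 follows from having no DMSO peak. A high count of settings was thus partly fixed in advance for them and is no sign of stability.

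**Figure D4:**
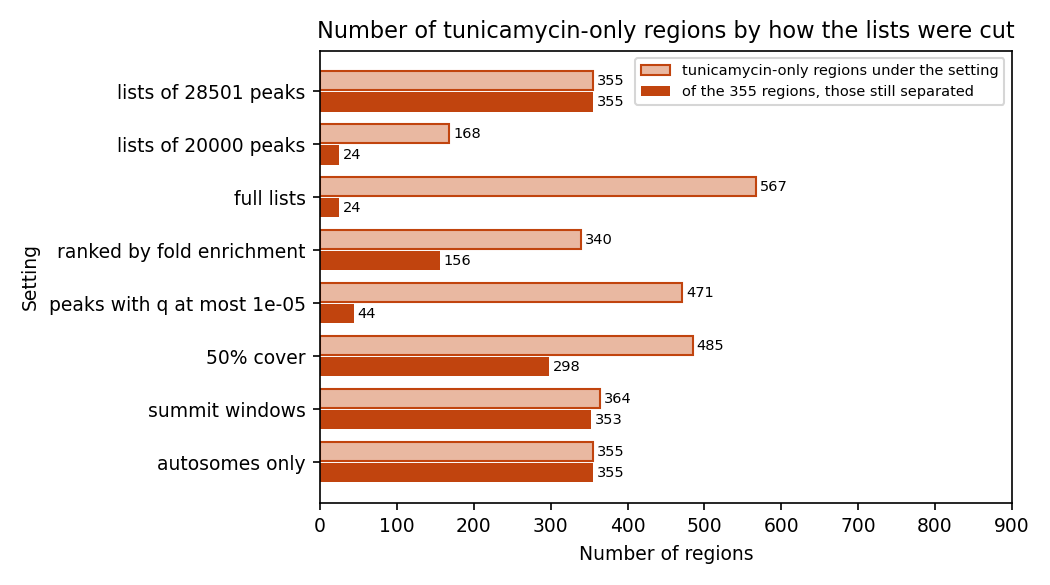
Number of tunicamycin-only regions under each way of making the lists (light bars) and how many of the 355 regions were still separated (dark bars), on a linear axis of region counts. The total runs from 168 to 567 regions, and the number of the 355 still separated from 24 to 355.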

How the data were processed

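ATAC-seq peak lists of 6 libraries were used, 1 list per library, so each library had its own peak calls. Build mm10, MACS2, Picard, featureCounts, Bowtie2 2.2.9 and Trim Galore 0.4.4 are named in the submitters' processing notes. What each did, how reads were filtered and whether read ends were shifted is not given in the sources used here. For each peak the authors deposited its interval, a score, the fold enrichment (a ratio), the p-value and q-value as −log10, and the summit offset. Depth is unknown from such lists. Peaks on other sequences, 109 to 138 per library, were left out.

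Peaks were ranked by −log10 q with ties by fold, the 28501 best were kept per list, and overlapping kept peaks were merged, and bedtools 2.31.1 gave the same 44958 regions. Merging and selection were tested on simulated data. Each region was given the closest of 21883 protein-coding gene bodies in the RefSeq table for GRCm38.p6, which gives no strand or exons, within 100 kb for counts. Promoter sequence came from RefSeq's table of the same build, using the 250 bases before each start site. The planned description of motifs and GC content over whole regions was not run, for want of a genome sequence.

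The members and the 26 gene lists (686 entries, all matched) were chosen with earlier results of these data known, and a T and NK cell list was added after values were seen. Regions were named by their nearest gene, namely the 10 of highest rank (by the weakest tunicamycin peak), the 10 of highest rank without a DMSO peak, those nearest to list genes, up to 15 within 1 kb of a gene end, those at both edges of the limit, and genes with several regions. Other genes named were chosen after their values were seen, and a few that the rule names are not reported here. No tests were made between groups. Alternatives were lists of 20000 peaks, full lists, ranking by fold, a q-value of at most 1e-05, 50% cover, summit windows, autosomes only, gene ends within 5 kb, assignment by gene end, and each library left out. Software versions were matplotlib 3.10.9, SciPy 1.17.1, pandas 2.3.3, NumPy 2.4.6 and Python 3.11.15.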

Additional observations from a re-analysis of the deposited data

How the results depend on the processing

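The number of tunicamycin-only regions was 168 with lists of 20000 peaks and 567 with full lists, against 355, and stayed within 1.5 times of it under 5 other alternatives (340 to 485). Leaving out a library gave 579 to 881. DMSO-only regions numbered 27 with a q-value of at most 1e-05 and 67 with 50% cover, against 118, and 219 to 572 when a library was left out. The share with a weaker DMSO peak was 100% with lists of 20000 peaks, 86.5% ranked by fold, 43.1% with a q-value of at most 1e-05 and 95.9% with 50% cover, against 93.2%, and 44.5% to 94.3% when a library was left out. The share inside a gene was 63.1% with lists of 20000 peaks and 51.2% ranked by fold, against 57.5%, and 56.8% to 59.1% when a library was left out. The share within 1 kb of a gene end was 7.06% ranked by fold, 14.8% with 50% cover and 22.5% within 5 kb, against 10.1%, and 9.92% to 15.7% when a library was left out. The cause was not tested, except that 5 kb takes in more regions and a left-out library loosens the rule. Assignment by gene end gave 305 nearest genes in place of 320, with 288 in both. No paired analysis was possible because no result comes from a test, and calls in 3 of 3 and 0 of 3 libraries are the same under any pairing. Peak lists without read counts limit every value here, since a weak peak and a shallow library cannot be told apart.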

Other observations

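Most of the 118 DMSO-only regions likewise had a peak of lower rank in the full tunicamycin lists. A weaker tunicamycin peak lay past the limit at 116 of them (98.3%), at 69 in all 3 tunicamycin lists, and at 2 in none. By library the weaker peak was present at 90 in tunicamycin replicate 1, 107 in replicate 2 and 94 in replicate 3. List genes nearest to a DMSO-only region included Vldlr, a lipoprotein receptor gene in the integrated stress response list, and Gbp6, an interferon-induced GTPase gene. They also included Bik, a pro-apoptotic BCL2 family gene, and Pik3r1, a regulatory subunit gene of phosphoinositide 3-kinase in the same list as Akt1. None of these 4 genes was nearest to a tunicamycin-only region.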
